A study of Sus scrofa with 63 samples.

Results

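The genes described here build the machinery that starts protein synthesis and the enzymes that load transfer RNAs with amino acids. They comprised 54 of the 6765 genes that the array's annotation names with a single symbol: 36 carried a symbol of an initiation factor (EIF1 to EIF6 and their partners) and 18 that of an aminoacyl-tRNA synthetase. They were chosen by symbol and not by a cut on any measured value, although earlier results of these data were known. These symbols were carried by 80 probe sets. For genes with several probe sets, the brightest on average over the 63 arrays stands for the gene. Membership in the list follows the symbol, so EIF4A3 and EIF5A, which work mainly in splicing-linked surveillance and in elongation, are included.

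RNA came from skin of the ventral abdomen of female Yorkshire crossbred pigs. Exposed sites, each 3 cm across, received 400 µL of undiluted sulfur mustard, a blistering alkylating agent, for 8 min. Control sites lay on the same animals and were left unexposed, while a sham animal at each time was depilated and prepared in the same way without the agent. Skin was sampled with an 8 mm punch after 1, 2, 4, 24, 48, 72, 168, 336 and 514 h, and each time had 3 exposed arrays, 3 control arrays and 1 sham array. The design text gives the last time in days, a value that does not match 514 h, and the label's 514 h is used here. A control site shares its animal with the lesion, so it is not skin of an untreated animal, and each sham group is 1 animal. The labels name no genotype, strain beyond the cross, or age.

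Translation begins when a small ribosomal subunit, carrying the initiator tRNA on the GTPase eIF2 and held by the scaffold eIF3, is brought to the capped end of an mRNA by eIF4F. eIF4F consists of the cap-binding protein eIF4E, the scaffold eIF4G and the RNA helicase eIF4A; 4E-binding proteins such as the product of EIF4EBP2 compete with eIF4G for eIF4E. Phosphorylation of the eIF2 alpha subunit by stress kinases slows initiation at most mRNAs and favours a small set of stress mRNAs, several synthetase genes among their downstream targets. Synthetases exist as a cytosolic and a mitochondrial set, in most cases encoded by different genes, and fall into the structural classes I and II.

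All differences are exposed minus control on the log2 scale of the deposited signals, so 1 is a doubling, and each is given ± its standard error from a limma model over all arrays. A gene is said to have risen or fallen only where the p-value, adjusted over 23999 probe sets by the Benjamini-Hochberg method, was below 0.05. Signals of the members averaged from 4.45 for EIF1AY to 13.2 for EIF1. EIF1AY and NARS2, an asparaginyl synthetase of mitochondria, were the members that a filter on the dimmest probe sets removed, so little can be read from them. The lowest median correlation of an array with the others of its group was 0.9649, and no member differed between sham and control skin at the adjusted threshold. That comparison, over all 9 times, called 0% of all probe sets higher and 0.0208% lower in sham skin, and 3 initiation factors and 2 synthetases had an unadjusted limma p below 0.05 in it.

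The biopsies differed in cell content as well as in exposure. Over the 24, 48 and 72 h groups, the mean signal of 8 keratinocyte markers was 9.898 to 11.12 on the 9 exposed arrays and 11.39 to 12.31 on the 9 control arrays, a difference of -1.419 (adjusted p = 0.0025), and 6 of the 8 fell. The mean of 14 neutrophil and macrophage markers ranged from 9.526 to 10.8 and from 7.809 to 9.249, a difference of 1.588 (adjusted p = 0.0025), and 13 of the 14 rose. The mean of 13 skeletal muscle markers ranged from 6.983 to 12.82 and from 10.09 to 13.41, a difference of -1.837 (adjusted p = 0.0482), and none of the 13 was called. At 24 h alone this mean read 8.74, 7.3 and 6.98 on the exposed arrays and 11.42, 11.58 and 10.09 on the control arrays. The groups of that time did not overlap, and the sham array read 9.26. Fibroblast markers differed by -0.254 (adjusted p = 0.0213), and the gap between 3′ and 5′ probe sets of GAPDH, a sign of RNA integrity, by 0.0814 (adjusted p = 0.668). These are two-sided exact permutation tests within times, adjusted over 30 tests, and 0.00025 is the smallest unadjusted p they can give. In whole skin, fewer cells of a type and less RNA per cell cannot be told apart, and the part of these shifts in the values of the members was not tested beyond a fit with the muscle level as a covariate. The keratinocyte markers were well above the floor of the array in control skin, as the tissue label implies.

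More members were called at 24 h than at any other single time. There 14 of 36 initiation factors rose and 4 fell, and 8 of 18 synthetases rose and none fell. Of all probe sets 14.4% were called higher and 12.7% lower at 24 h, and of the 6765 named genes 24.9% and 11.4%. The share of synthetases that rose, 44.4%, and that of initiation factors, 38.9%, thus stood above both backgrounds, and the share of initiation factors that fell, 11.1%, stood at them. The median difference at 24 h was 0.44 for synthetases and 0.13 for initiation factors, against 0.066 for all named genes and -0.014 for all probe sets. At 168 h no initiation factor rose and 10 fell, while 1 synthetase rose; EIF4H was the 1 gene called in opposite directions at 24 h and 168 h, and EIF3E, EIF4B and EIF4EBP2 fell at both. The largest absolute difference of a gene over the 9 times was at 24 h for 16 initiation factors and 11 synthetases, and at 168 h for 13 initiation factors. There were 17 members that passed the threshold at no single time: EIF1, EIF1AY, EIF2A, EIF2D, EIF2B1, EIF2B2, EIF2B3, EIF3L, EIF4G2, EIF4G3, WARS, SARS, EARS2, FARS2, NARS2, VARS2 and KARS.

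**Figure D1:**
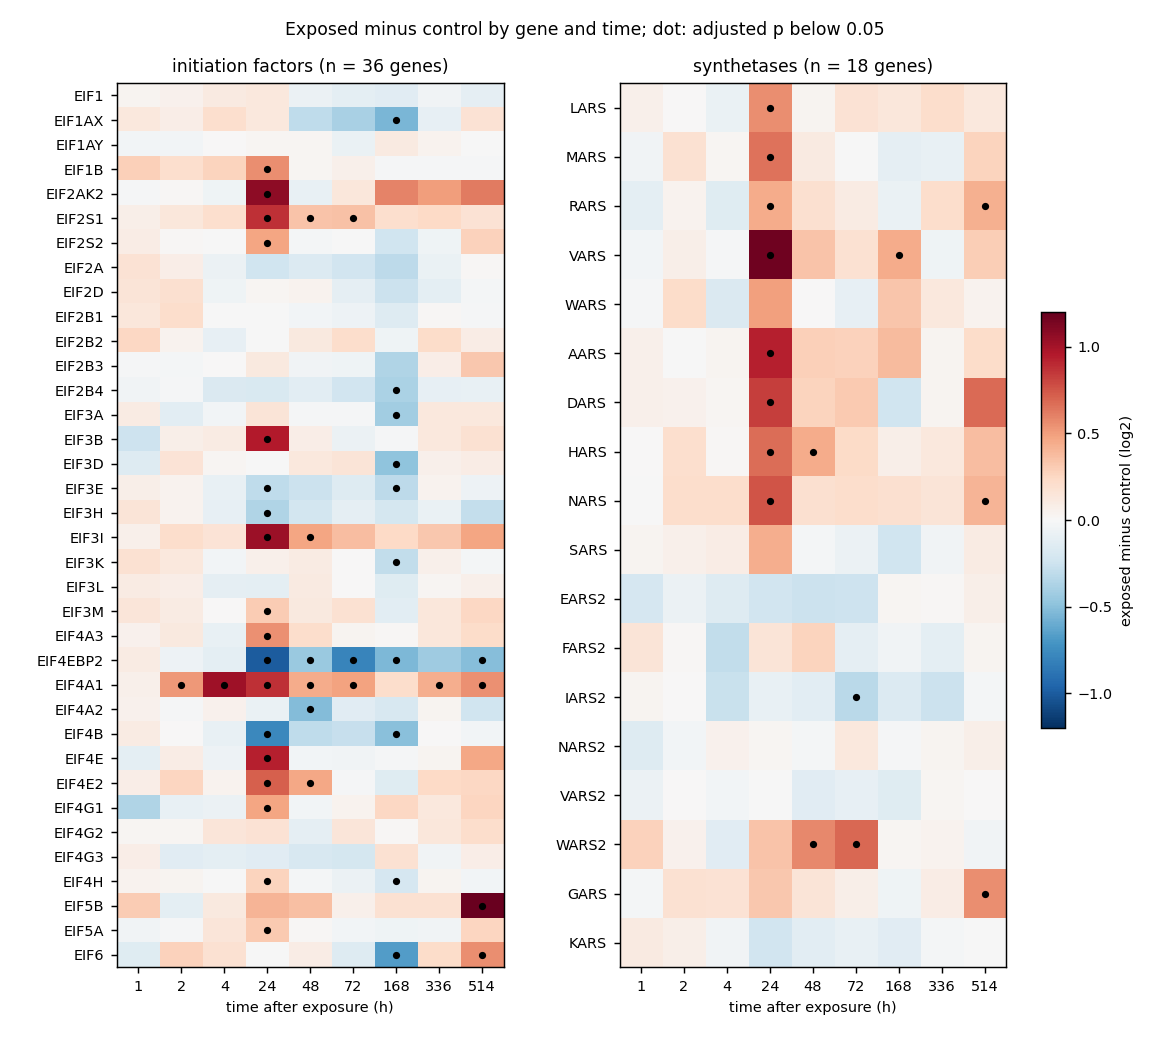
Difference between exposed and control skin (log2, colour) for each of the 36 initiation factors and 18 synthetases (vertical axis) at 9 times in hours (horizontal axis); a dot marks an adjusted p below 0.05. At 24 h 14 initiation factors and 8 synthetases rose, and at 168 h 10 initiation factors fell.

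**Figure D2:**
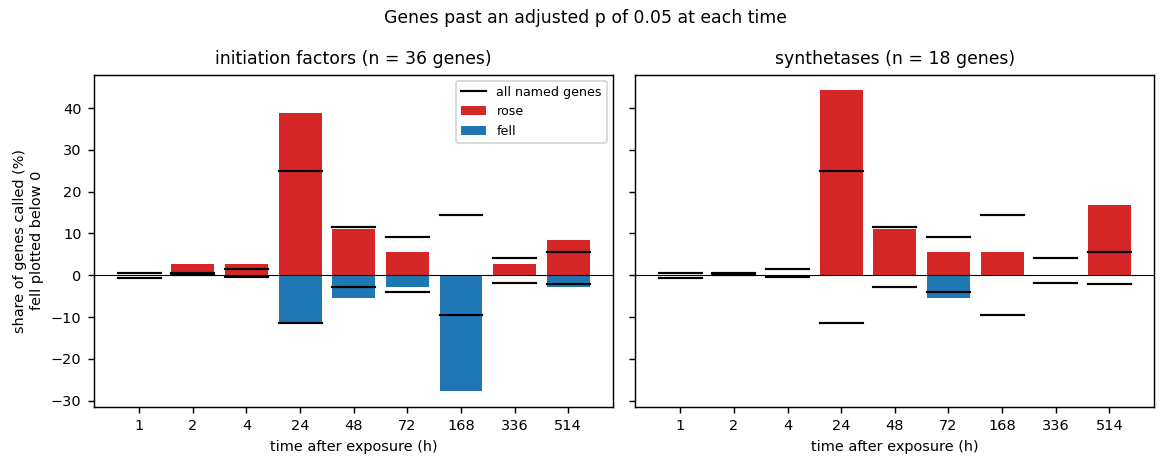
Share of genes called (percent, vertical axis) at each time in hours, with genes that rose as bars above 0 and genes that fell as bars below 0; black lines give the same shares over the 6765 named genes. The bars for a rise pass the lines at 24 h in both classes, where 38.9% of initiation factors and 44.4% of synthetases rose against 24.9% of named genes.

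In the first hours the response of these genes was nearly that of a single gene. EIF4A1, the helicase of eIF4F, rose at 2 h and 4 h and was the only member called at either time. At 1 h its exposed arrays read 11.36, 11.34 and 11.56 and its control arrays 11.34, 11.4 and 11.34, so the groups overlapped. At 2 h they read 11.68, 12.13 and 11.57 against 11.15, 11.37 and 11.32, and at 4 h 11.95, 11.94 and 11.86 against 10.67, 11.03 and 11. Every exposed array lay above every control array at 2 h and 4 h, with differences of 0.52 ± 0.11 (limma adjusted p = 0.0082) and 1.02 ± 0.11 (adjusted p = 1.81e-08), and the latter is 2.03-fold. The sham array at 2 h read 11.71, within the exposed range, and the 2 h call was lost without control array 1 or exposed array 2, with quantile normalization (0.45, adjusted p = 0.0623) and in a fit of the 6 arrays of that time (adjusted p = 0.873).

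The background was low at these times. At 1 h 0.413% of probe sets were called higher and 0.788% lower, with no member among them and 2 initiation factors and no synthetase at an unadjusted limma p below 0.05. At 2 h 0.338% were higher and 0.0542% lower, and at 4 h 1.11% and 0.342%. Over 1 to 4 h together, where 2.07% of probe sets were called higher and 3.41% lower, 2 initiation factors rose and no synthetase did. These were EIF4A1, by 0.53 ± 0.06 (adjusted p = 8.03e-08), and EIF1B, a paralogue of the start-codon guard eIF1, by 0.25 ± 0.07 (adjusted p = 0.013). The exposed array was the higher in 9 of 9 exposed and control pairs of the same number for EIF1B, although the numbers are tied by the labels to a sacrifice day and not to an animal, and the call was lost without control array 2 of 4 h. When same-numbered arrays were blocked, EIF2S1 also rose (adjusted p = 0.0485) and EIF4G1 fell over this window, and EIF4G1 fell at 1 h.

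Some genes of the integrated stress response, the programme that follows eIF2 alpha phosphorylation, rose in the first hours, when no synthetase was called. Of 16 such genes measured, 4 rose over 1 to 4 h and none fell, where 2.85% of named genes were called higher. ATF3, a stress transcription factor, rose by 1.95 ± 0.22, DDIT3, which encodes CHOP, by 0.83 ± 0.13, and PPP1R15A, which encodes GADD34, the subunit that returns a phosphatase to eIF2 alpha, by 0.95 ± 0.16. PPP1R15B rose by 0.17 ± 0.05. ATF4 (0.275, limma adjusted p = 0.128) and the rest of the list, among them ASNS (0.086), PSAT1 (0.0081) and PHGDH (-0.0072), were not called over 1 to 4 h. The synthetase differences in the same window ranged from -0.14 to 0.14, with a median of 0.02, and none was called. Over 24 to 72 h ATF3 (1.32 ± 0.22), DDIT3 (0.62 ± 0.13), CEBPG (0.61 ± 0.08) and MTHFD2 (0.35 ± 0.12) rose, while PSAT1, an enzyme of serine synthesis, fell by 1.03 on the log2 scale and the lipoprotein receptor gene VLDLR by 0.80. In that later window 4 of 16 rose and 2 fell, where 30.8% of named genes were higher and 14.3% lower, and the list's members differed in direction among themselves.

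The genes of both measured eIF2 subunits rose at 24 h. EIF2S1, the alpha subunit that stress kinases phosphorylate, read 11.97, 11.96 and 12.03 in exposed skin at 24 h and 11.14, 11.19 and 11 in control skin, with the sham array at 11.08. The groups did not overlap, and the difference was 0.87 ± 0.09 (limma adjusted p = 4.95e-10), or 1.83-fold. It remained called at 48 h (0.34 ± 0.09, adjusted p = 0.00735) and 72 h (0.36 ± 0.09, adjusted p = 0.00479), the latter not without exposed array 3 or control array 2. EIF2S2, the beta subunit, read 12.45, 12.43 and 12.22 against 11.97, 11.98 and 11.76 at 24 h and rose by 0.47 ± 0.13. It was called at no other time, with -0.02 at 48 h and -0.009 at 72 h. Over 24 to 72 h it stood at 0.146 (adjusted p = 0.119). EIF2S1 differed over 24 to 72 h by 0.52 ± 0.05 (adjusted p = 6.69e-11) and over 168 to 514 h by 0.20 ± 0.05 (adjusted p = 0.00201). The exposed array was the higher in 9 of 9 same-numbered pairs in each of these windows. The fall between the windows, tested as a difference, was -0.32 ± 0.07 (limma adjusted p = 0.00273). Against the sham arrays, 1 per time, this fall was -0.296 and was not called.

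The regulators of eIF2 did not move together. The kinase gene EIF2AK2, which encodes the double-stranded RNA sensor PKR, rose at 24 h by 1.08 ± 0.38 (limma adjusted p = 0.0288). Its exposed arrays read 10.51, 10.86 and 10.65, close together, and its control arrays 9.01, 10.18 and 9.6. The 2 groups did not overlap, but the control arrays spanned a wide range and the call was lost without control array 1 (difference 0.79), control array 3, exposed array 2 or exposed array 3, and with the muscle level as a covariate (0.79, adjusted p = 0.111). EIF2AK2 was also not called with quantile normalization (0.982, limma adjusted p = 0.0527). Of the 4 subunits of eIF2B measured, the factor that reloads eIF2 with GTP, none was called at 24 h, where they ranged from -0.19 for EIF2B4 to 0.12 for EIF2B3, with EIF2B1 and EIF2B2 near 0. EIF2B4, the delta subunit, fell at 168 h by 0.38 on the log2 scale, from control signals of 10.34, 10.32 and 10.47 to 10.01, 9.94 and 10.04, without overlap. Its difference over 24 to 72 h was -0.18 ± 0.06 (adjusted p = 0.0135), a call lost without control array 1 of 48 h and against the sham arrays (-0.11, adjusted p = 0.389). With the muscle level as a covariate EIF2B4 was not called in that window (-0.138, adjusted p = 0.0597). EIF2A, which encodes an alternative carrier of initiator tRNA, was called over 24 to 72 h only, at -0.21 ± 0.08 (limma adjusted p = 0.0467). A dimmer probe set for EIF2A stood at 0.065 over that window and was not called (adjusted p = 0.648).

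The 9 measured subunits of eIF3 split. At 24 h EIF3B, EIF3I and EIF3M rose and EIF3E and EIF3H fell, where 24.9% of named genes were higher and 11.4% lower. EIF3A, EIF3D, EIF3K and EIF3L were not called. EIF3I, a WD-repeat subunit, read 11.96, 11.69 and 11.96 against 10.95, 10.78 and 10.79, a difference of 1.03 ± 0.15 (limma adjusted p = 1.62e-06) or 2.04-fold. EIF3B, the subunit to which EIF3I binds, read 10.74, 10.62 and 10.73 against 9.63, 9.74 and 9.85, a difference of 0.96 ± 0.14 (adjusted p = 8.95e-07). Neither pair of groups overlapped. The time courses differed: EIF3I stayed above control over 24 to 72 h in 9 of 9 same-numbered pairs (0.62 ± 0.09, adjusted p = 3.73e-07) and over 168 to 514 h in 9 of 9 (0.34 ± 0.09, adjusted p = 0.00344), while EIF3B was higher in 5 of 9 pairs over 24 to 72 h (0.32 ± 0.08, adjusted p = 0.00125). For EIF3I at 48 h the difference of 0.47 was lost as a call without exposed array 1 or 3 or control array 2 or 3.

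EIF3H, an MPN-domain subunit outside the core that EIF3A and EIF3B form, read 12.19, 12.1 and 12.12 in exposed skin at 24 h and 12.54, 12.5 and 12.45 in control skin. It fell by 0.36 ± 0.10 on the log2 scale (limma adjusted p = 0.00513) and was the lower in 9 of 9 pairs over 24 to 72 h (-0.23 ± 0.06, adjusted p = 0.0015). EIF3E, a neighbouring subunit, read 12.2, 12.21 and 11.95 against 12.44, 12.5 and 12.32 and fell by 0.30 at 24 h. EIF3M, with 0.31 ± 0.09, had groups that did not overlap at 24 h, at 11.54, 11.42 and 11.47 against 11.18, 11.31 and 11.02. A second probe set for EIF3M gave the opposite sign over 24 to 72 h, -0.48 (adjusted p = 9.04e-04) against 0.20 for the brighter one, so the direction for EIF3M depends on the probe set.

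Among the parts of eIF4F and its helpers, 5 of 9 rose and 1 fell at 24 h, where 24.9% of named genes were higher and 11.4% lower. EIF4A1 read 12.46, 12.37 and 12.26 against 11.56, 11.52 and 11.4 and rose by 0.87 ± 0.11 (limma adjusted p = 4.74e-08), 1.83-fold. It rose at 7 of the 9 times, more often than any other initiation factor or synthetase: at 48 h by 0.44, at 72 h by 0.48, at 336 h by 0.43 and at 514 h by 0.55, besides 2, 4 and 24 h. At 1 h and 168 h it was not called. The 336 h call was lost without exposed array 1, exposed array 2 or control array 2. The window of 24 to 72 h gave 0.60 ± 0.06 (adjusted p = 4.55e-10), with 9 of 9 pairs higher, and over 168 to 514 h 0.40 ± 0.06, with 8 of 9.

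EIF4A2, the near-identical paralogue of EIF4A1, did not follow it. It was called at 48 h only, where it read 13.02, 12.74 and 12.6 in exposed skin against 13.27, 13.44 and 13.22 and fell by 0.52 ± 0.11 (limma adjusted p = 0.00127). It fell by 0.25 on the log2 scale over 24 to 72 h (adjusted p = 0.00182), while EIF4A1 rose. Cross-hybridisation between the paralogues was not tested, since no probe sequences were used here.

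EIF4E, the cap-binding protein, read 7.89, 7.74 and 7.81 against 7.01, 6.89 and 6.75 at 24 h, a difference of 0.93 ± 0.18 (limma adjusted p = 1.27e-04) without overlap. It was not called at 48 h or 72 h. Over 24 to 72 h the exposed array was the higher in 4 of 9 pairs, and the window's difference of 0.28 ± 0.11 (adjusted p = 0.0339) was lost as a call when 7 of the 18 arrays were left out in turn and against the sham arrays (0.035, adjusted p = 0.909). With the muscle level as a covariate EIF4E was not called in that window (0.271, adjusted p = 0.0556). EIF4E2, a related cap-binding protein linked to translational repression, rose by 0.71 ± 0.15 at 24 h, from 9.64, 9.59 and 9.61 to 10.38, 10.4 and 10.2. The other probe sets of EIF4E2 gave 0.012 and -0.21 over 24 to 72 h where the one used gave 0.39, so this direction too depends on the probe set. EIF4G1, the scaffold, read 11.4, 11.47 and 11.26 against 10.8, 11 and 10.92 at 24 h and rose by 0.47 ± 0.11 (adjusted p = 0.00122). Over 168 to 514 h it rose by 0.21 ± 0.07 with 9 of 9 pairs higher, a call lost with the mean of its probe sets (0.10), while over 1 to 4 h it stood at -0.17 ± 0.07 (adjusted p = 0.129, and 0.0346 with the replicate number as a block). EIF4G2 and EIF4G3 were called at no time.

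EIF4EBP2, which encodes a repressor of eIF4E, had the largest fall of any member. At 24 h its exposed arrays read 10.96, 10.77 and 10.76 and its control arrays 11.88, 11.74 and 11.87, with the sham array at 11.88. The difference was -0.998 ± 0.144 (limma adjusted p = 9.55e-07), 2-fold lower. Over 24 to 72 h the exposed arrays ranged from 10.73 to 11.56 (median 10.96) and the control arrays from 11.68 to 12.07 (median 11.79). These ranges did not overlap, though the share of all probe sets without overlap in that window was not counted. EIF4EBP2 differed by -0.75 ± 0.08 over the window (limma adjusted p = 2.42e-09). It also fell at 48 h (-0.45), 72 h (-0.80), 168 h (-0.54) and 514 h (-0.52), and over 168 to 514 h it was the lower in 9 of 9 pairs (-0.49 ± 0.08, adjusted p = 1.88e-05). The call at 48 h was lost without exposed array 2 or 3 or control array 1 or 2, that at 168 h without exposed array 1 or 2, and that at 514 h without exposed array 2 or control array 1 or 2. Of the 4 dimmer probe sets with this symbol, one fell by 0.79 and another by 0.31 over 24 to 72 h, one stood at 0.0075 and one was higher by 0.28 (adjusted p = 0.00212).

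EIF4B, a cofactor of the helicase, fell alongside. It read 11.56, 11.35 and 11.36 against 12.22, 12.1 and 12.26 at 24 h, a difference of -0.77 ± 0.15 (limma adjusted p = 1.04e-04), and was lower in 9 of 9 pairs over 24 to 72 h (-0.45 ± 0.09). At 168 h it fell again, from 12.05, 11.83 and 11.78 to 11.37, 11.38 and 11.4. A dimmer probe set for EIF4B stood at 0.13 over 24 to 72 h and was not called (adjusted p = 0.129), and with the mean of both the fall was not called (-0.16, adjusted p = 0.0681). EIF4H, a smaller relative of EIF4B with the same cofactor role, instead rose at 24 h, from 11.41, 11.52 and 11.5 to 11.79, 11.69 and 11.75, and fell at 168 h.

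**Figure D3:**
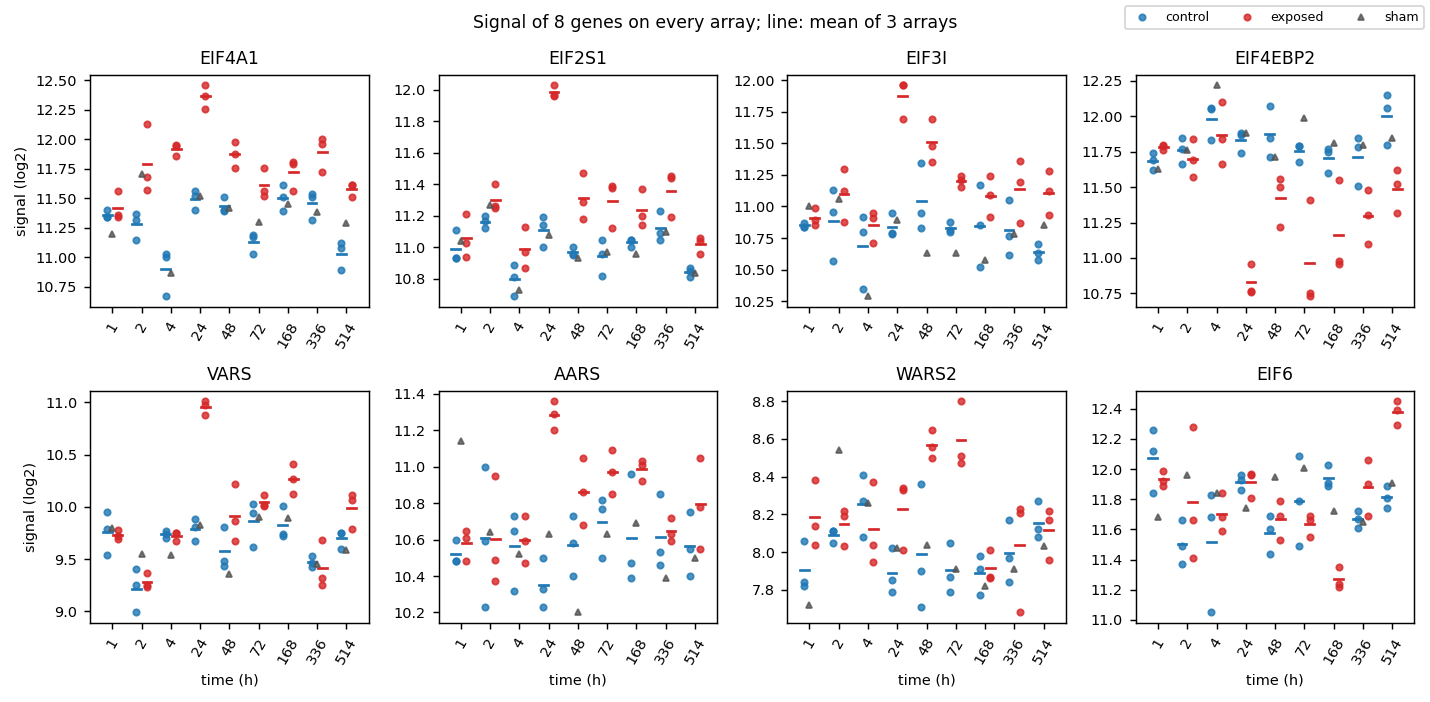
Signal (log2, vertical axis) of 8 genes on each control, exposed and sham array at 9 times in hours (horizontal axis); points are single arrays and short lines are means of 3 arrays. EIF4A1, EIF2S1, EIF3I, VARS and AARS peak in exposed skin at 24 h, while EIF4EBP2 falls from 11.88, 11.74 and 11.87 in control skin to 10.96, 10.77 and 10.76.

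Of the remaining initiation factors at 24 h, EIF1B rose from 10.3, 10.49 and 10.22 to 10.87, 11.03 and 10.79 (0.56 ± 0.11). EIF4A3, the helicase of the exon junction complex, rose from 10.93, 11.12 and 10.89 to 11.61, 11.38 and 11.59 (0.54 ± 0.08). EIF5A, the hypusine-carrying factor that relieves stalled ribosomes, rose from 12.31, 12.36 and 12.34 to 12.59, 12.68 and 12.67 (0.31 ± 0.09). None of the 3 had overlapping groups. EIF6, which keeps free large subunits from joining, stood at -0.0042 ± 0.15 at 24 h.

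The 8 synthetases that rose at 24 h were all cytosolic. Of named genes 24.9% were called higher at 24 h. In class I 4 of 5 rose (LARS, MARS, RARS and VARS) and in class II 4 of 5 (AARS, DARS, HARS and NARS). The other two, WARS at 0.49 ± 0.21 (limma adjusted p = 0.0859) and SARS at 0.44 ± 0.18 (adjusted p = 0.0692), had all 3 exposed arrays above the control array of the same number but did not pass the threshold. The 6 mitochondrial synthetases ranged from -0.23 for EARS2 to 0.34 for WARS2 and none was called. GARS and KARS, each of which supplies both compartments from 1 gene, stood at 0.32 ± 0.15 (adjusted p = 0.102) and -0.23 ± 0.09 (adjusted p = 0.0581). With the replicate number as a block, WARS, SARS, WARS2 and GARS rose as well (adjusted p = 0.00964, 0.0219, 0.0153 and 0.0333) and KARS fell (adjusted p = 0.0462), which made 12 of 18 that rose and 1 that fell. With the sacrifice day as a block the same 12 rose and KARS was not called. The difference between the cytosolic and the mitochondrial set as such was not tested. The mitochondrial genes were mostly dimmer, with mean signals over all arrays from 5.24 for NARS2 to 9.37 for IARS2. Those of the cytosolic genes ran from 9.18 for DARS to 11.27 for RARS. The part of signal level in this contrast was not tested.

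VARS, which charges valine tRNA, showed the largest rise of any member at 24 h. It read 11.01, 10.88 and 10.97 in exposed skin against 9.81, 9.67 and 9.88 in control skin and 9.83 in sham skin, a difference of 1.16 ± 0.12 (limma adjusted p = 3.27e-09), or 2.24-fold. AARS, the alanyl enzyme, read 11.29, 11.36 and 11.2 against 10.23, 10.33 and 10.5, a difference of 0.93 ± 0.16 (adjusted p = 1.26e-05). NARS, the asparaginyl enzyme, read 11.77, 11.93 and 11.84 against 11.15, 11.11 and 11.02 and rose by 0.75 ± 0.12. In these 3 genes the exposed and control arrays were well apart. HARS, the histidyl enzyme, read 10.11, 10.06 and 9.94 against 9.43, 9.45 and 9.22 and rose by 0.67 ± 0.13. MARS, the methionyl enzyme, rose by 0.65 ± 0.20, LARS, the leucyl enzyme, by 0.56 ± 0.17 and RARS, the arginyl enzyme, by 0.44 ± 0.08. DARS, the aspartyl enzyme, was the exception in its spread: it read 9.88, 9.2 and 10.25 against 8.97, 9.4 and 8.47, so the groups overlapped, and its call (0.83 ± 0.23, adjusted p = 0.0051) was lost without exposed array 3 or control array 3.

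At 24 h the RNA had been transcribed and labelled in vitro on more than 1 day. The median difference of the synthetases was 0.47 on the day that held 2 exposed and 2 control arrays and 0.48 on the day with 1 of each. For the initiation factors these medians were 0.16 and 0.11. Within the 2 sacrifice days of the 24 h group, with 2 and 1 arrays of each kind, the medians were 0.38 and 0.43 for synthetases and 0.19 and 0.071 for initiation factors.

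At 48 h 4 initiation factors rose and 2 fell, and 2 synthetases rose, with 5.84% of probe sets higher and 4.11% lower. At 72 h 2 initiation factors rose and 1 fell, and 1 synthetase rose and 1 fell, against 5.4% and 4.25%. Among named genes 11.5% were higher at 48 h and 9.12% at 72 h, so the shares of members that rose, 11.1% in each class at 48 h and 5.56% in each at 72 h, were at or under that background. HARS rose at 48 h by 0.44 ± 0.13, a call lost without exposed array 3 or control array 2 or 3 and with the mean of its probe sets (0.32, limma adjusted p = 0.0597). EIF4E2 rose at 48 h by 0.47 ± 0.15, a call lost without exposed array 1 or 3 or control array 2, and the mean of its probe sets gave 0.094 (adjusted p = 0.573).

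WARS2, the mitochondrial tryptophanyl enzyme, was called at 48 h and 72 h. It stood at 0.34 ± 0.14 at 24 h (limma adjusted p = 0.0642 without a block), and the change between these times was not tested. At 48 h it read 8.5, 8.56 and 8.65 against 8.36, 7.71 and 7.9, and at 72 h 8.8, 8.47 and 8.51 against 8.05, 7.87 and 7.79. The exposed arrays lay above all control arrays at both times, with differences of 0.58 ± 0.14 (limma adjusted p = 0.00427, lost without control array 2) and 0.69 ± 0.14 (adjusted p = 6.81e-04). Over 24 to 72 h the exposed array was the higher in 9 of 9 pairs (0.54 ± 0.08, adjusted p = 8.54e-07), and over 168 to 514 h the difference was 0.01. The change between these windows was -0.53 ± 0.11 (limma adjusted p = 0.0019). Against the sham arrays, 1 per time, this change was -0.37 and was not called. IARS2, the mitochondrial isoleucyl enzyme, fell at 72 h from 9.04, 9.18 and 9.28 to 8.94, 8.72 and 8.86, a difference of -0.32 ± 0.11 (adjusted p = 0.0464) that was lost as a call without any of 5 of the 6 arrays, all but control array 1.

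Taking 24, 48 and 72 h together, 9 initiation factors rose and 7 fell, and 8 synthetases rose and 3 fell, where 18.2% of probe sets were called higher and 16.9% lower. Of named genes 30.8% were higher and 14.3% lower. The share of synthetases that rose, 44.4%, was above this background, and that of initiation factors, 25%, was not. The synthetases with the largest rises were VARS (0.56 ± 0.07, limma adjusted p = 5.22e-08, 9 of 9 pairs), WARS2, AARS (0.50 ± 0.09), DARS (0.47 ± 0.13) and HARS (0.45 ± 0.08). Those that fell were EARS2, the mitochondrial glutamyl enzyme (-0.24 ± 0.07, adjusted p = 0.00559), IARS2 (-0.18 ± 0.06, adjusted p = 0.0189) and KARS (-0.15 ± 0.05, adjusted p = 0.0274). EARS2 read 8.04 to 8.33 in exposed and 8.29 to 8.75 in control skin, with 8 of 9 exposed arrays below every control array. The IARS2 call was lost without control array 1 of 48 h, and the KARS call when 6 of 18 arrays were left out in turn. With the muscle level as a covariate IARS2 (-0.152, adjusted p = 0.0592) and KARS (-0.106, 0.109) were not called. MARS (0.25 ± 0.11, adjusted p = 0.0865), GARS (0.18 ± 0.08, adjusted p = 0.0954), WARS (0.13 ± 0.12) and SARS (0.12 ± 0.10) did not pass over this window. MARS and GARS passed with the replicate number (adjusted p = 0.0205 and 0.032) or the sacrifice day (0.0422 and 0.0464) as a block, as did EIF4G1 (0.0147 and 0.0496), while EIF1AX fell with the replicate number only (0.0165). Against the sham arrays, 1 per time, DARS (0.37, adjusted p = 0.144), EARS2 (-0.082, 0.613) and KARS (-0.048, 0.704) were not called.

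**Figure D4:**
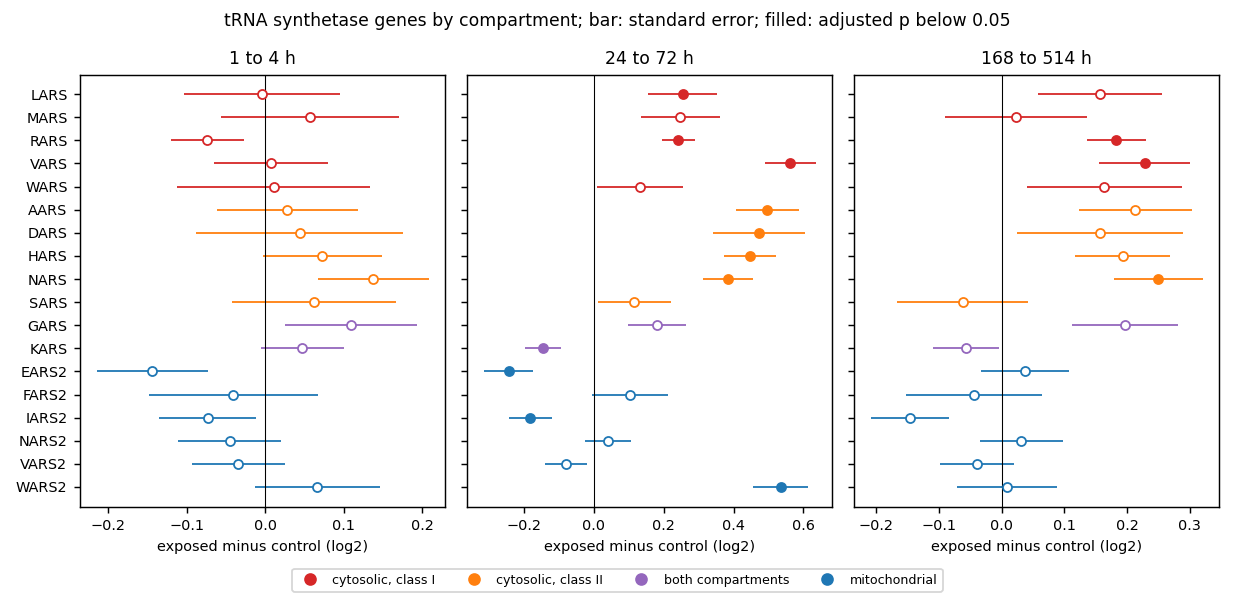
Difference between exposed and control skin (log2, horizontal axis) for the 18 synthetase genes (vertical axis) over 1 to 4 h, 24 to 72 h and 168 to 514 h; points are fitted differences, bars are standard errors, filled points passed the adjusted threshold and the horizontal scales differ between panels. Over 24 to 72 h 7 of 10 cytosolic genes rose, while of the 6 mitochondrial genes WARS2 rose and EARS2 and IARS2 fell.

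Genes whose products join or assist the synthetases were also measured. Of 6 such genes 4 rose over 24 to 72 h and none fell, where 30.8% of named genes were higher and 14.3% lower. FARSA and FARSB, the subunits of the phenylalanyl enzyme, rose by 0.50 ± 0.09 and 0.17 ± 0.05. AIMP2 and EEF1E1, scaffold proteins of the complex that holds several cytosolic synthetases, rose by 0.43 ± 0.11 and 0.64 ± 0.08, the latter in 9 of 9 pairs (limma adjusted p = 9.94e-09). The median of the 6 was 0.30. Of 12 factors of elongation, termination and recycling, 4 rose, a share near that of named genes: TSFM by 0.50 ± 0.10, TUFM by 0.38 ± 0.10 and MRRF by 0.38 ± 0.08, which all serve mitochondrial ribosomes, and EEF1G, a cytosolic elongation factor subunit, by 0.16 ± 0.03. Of 6 regulators of mTOR signalling and cap binding 1 rose and 1 fell, under or near the shares of named genes: RHEB, the GTPase that activates mTOR, rose by 0.19 ± 0.04 and TSC2, its inhibitor, fell by 0.30 on the log2 scale.

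The difference of the 24 to 72 h window from the first hours was tested directly. It called 5 initiation factors in the positive and 4 in the negative direction and 5 synthetases in the positive. Of probe sets 10.1% were positive and 6.43% negative, and of named genes 16.8% and 6.36%. The shares were 13.9% and 11.1% of initiation factors and 27.8% and 0% of synthetases. The positive share of initiation factors was thus under that of named genes. VARS (0.56 ± 0.10), WARS2 (0.47 ± 0.11), AARS (0.47 ± 0.13), HARS (0.37 ± 0.11) and RARS (0.32 ± 0.07) were the synthetases. EIF3I (0.48 ± 0.12), EIF2S1 (0.39 ± 0.07) and EIF3B (0.35 ± 0.11) led the positive initiation factors, and EIF4EBP2 (-0.72 ± 0.12), EIF4B (-0.45 ± 0.12) and EIF4A2 (-0.28 ± 0.09) the negative. The call of EIF3B was lost without exposed or control array 3 of 48 h, and that of EIF4A2 without control array 2 of 1 h or exposed array 3 of 48 h. EIF3B was also not called with quantile normalization (0.29, limma adjusted p = 0.062). With the mean of its probe sets EIF4B was not called (-0.165, 0.29), nor was EIF4A2 with the muscle level as a covariate (-0.249, 0.0579). Against the sham arrays, 1 per time, the differences were 0.293 for EIF3B and -0.485 for EIF4B, and neither was called.

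At 168 h 10 of 36 initiation factors fell and none rose, where 8.06% of probe sets were called lower and 9.87% higher and 9.46% of named genes were lower and 14.5% higher. The median difference of the 36 was -0.15, against 0.0093 for named genes, and 10 of 36 were above 0. Between 4 and 10 were called when each of the 6 arrays was left out in turn, with 4 without exposed array 1. With the replicate number as a block 2 rose (EIF2S1 and EIF4G1) and 11 fell. On the in vitro transcription day that held 2 exposed and 2 control arrays the median was -0.17 and on the day with 1 of each it was -0.08; within the 2 sacrifice days it was -0.18 and -0.051. The median difference of the 8 keratinocyte markers was -2.55 at 168 h and -1.06 at 24 h, and 5 of them fell at 168 h. The mean of the neutrophil and macrophage markers read 10.23, 10.3 and 9.67 on the exposed arrays of 168 h and 8.01, 8.11 and 8.08 on the control arrays, and 13 of the 14 rose. Over 168 to 514 h these markers differed by 1.175 (exact permutation adjusted p = 0.0045), fibroblast markers by -0.359 (0.00375) and adipocyte markers by -0.491 (0.0025). The part of any of these in the values of the initiation factors was not tested.

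The genes that fell at 168 h came from 6 of the 12 role groups. EIF6 read 11.22, 11.24 and 11.35 against 11.89, 12.03 and 11.91, the largest fall at -0.67 ± 0.15 (limma adjusted p = 0.00134). EIF1AX, which encodes the start-site factor eIF1A, read 10.45, 10.89 and 10.43 against 11.12, 11.27 and 11.01 and fell by 0.54 ± 0.14 (adjusted p = 0.00588). From eIF3, EIF3D, a subunit that can itself bind certain mRNA caps, read 10.95, 10.94 and 10.81 against 11.24, 11.54 and 11.38 and fell by 0.48. None of these groups overlapped. EIF3A, the largest eIF3 subunit, fell by 0.42 with groups apart, EIF3E by 0.31 and EIF3K by 0.30. EIF4EBP2, EIF4B, EIF4H and EIF2B4 were the others. VARS was the 1 synthetase that rose, at 10.27, 10.12 and 10.41 against 9.74, 9.72 and 10.01 (0.44 ± 0.12, adjusted p = 0.00987), a call lost without exposed array 3 or control array 2. With the replicate number or the sacrifice day as a block AARS rose too.

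At 336 h, where 2.38% of probe sets were higher and 1.66% lower, EIF4A1 was the only member called. At 514 h, with 3.7% higher and 2.13% lower, 3 initiation factors rose and 1 fell, and 3 synthetases rose. RARS read 11.56, 11.57 and 11.38 against 11.09, 11.11 and 11.04 and rose by 0.42 ± 0.08 (limma adjusted p = 0.00101). NARS read 11.07, 11.15 and 10.95 against 10.51, 10.68 and 10.76 (0.41 ± 0.12), and GARS, the glycyl enzyme, 11.62, 11.77 and 11.4 against 10.8, 11.32 and 10.99 (0.56 ± 0.15). The groups of all 3 were apart. The calls of NARS and GARS were each lost without any of 4 of the 6 arrays: exposed array 1 or 2 or control array 1 for both, control array 2 for NARS and control array 3 for GARS. With the replicate number as a block 6 initiation factors rose and 2 fell at 514 h, EIF3I, EIF3M, EIF4E and, as a fall, EIF3H in addition, and HARS was a further synthetase that rose. At 336 h EIF4EBP2 fell under that block.

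The largest difference at 514 h rested on 1 array. EIF5B, the GTPase of subunit joining, read 9.29, 9.06 and 9.02 in exposed skin and 8.87, 6.22 and 8.73 in control skin, with the sham array at 9.13. The difference of 1.19 ± 0.35 (limma adjusted p = 0.036) became 0.33 and was not called without control array 2. It was also lost without any 1 of the exposed arrays and with the sacrifice day as a block (adjusted p = 0.0582).

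EIF6 was among the falls at 168 h and the rises at 514 h. At 514 h it read 12.45, 12.39 and 12.29 against 11.74, 11.89 and 11.81, above all control arrays by a difference of 0.56 ± 0.15 (limma adjusted p = 0.0206). This call was lost without exposed array 1 or 2 or control array 1 or 3. The difference between the 2 times was 1.23 ± 0.22 (adjusted p = 1.75e-04). EIF4H went the other way, from a rise at 24 h (0.27 ± 0.06) to a fall at 168 h (-0.20 ± 0.06), a difference of -0.47 ± 0.09 (adjusted p = 7.2e-04). These 2 genes and their times were picked because they were called in opposite directions, so the tests of the difference carry no weight of their own.

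Over 168, 336 and 514 h together 5 initiation factors rose and 3 fell, and 3 synthetases rose, where 12% of probe sets were higher and 9.88% lower and 18.9% and 10.5% of named genes. EIF4A1, EIF3I, EIF4G1 and EIF2S1 rose by 0.40, 0.34, 0.21 and 0.20, and EIF4A3 by 0.12, a call that was lost when 12 of 18 arrays were left out in turn. EIF4EBP2, EIF3H and EIF2B4 fell by 0.49, 0.19 and 0.19 on the log2 scale, EIF3H not without exposed array 3 of 336 h. NARS rose by 0.25 ± 0.07 in 9 of 9 pairs, VARS by 0.23 ± 0.07 and RARS by 0.18 ± 0.05, and VARS was not called without exposed array 3 of 336 h. EIF2AK2 stood at 0.57 ± 0.22 (limma adjusted p = 0.0542). With the replicate number as a block 6 synthetases rose, with AARS (adjusted p = 0.0189), GARS (0.0283) and HARS (0.0328) besides the 3 above, EIF2AK2 rose (0.0209) and EIF4A3 was not called (0.0747). With the sacrifice day as a block 5 synthetases rose, HARS not among the additions. EIF2AK2 also rose under that block (limma adjusted p = 0.0423), and EIF4A3 was not called (0.0634). Against the sham arrays, 1 per time, NARS (0.13, adjusted p = 0.479), VARS (0.25, 0.124), EIF3H (-0.061, 0.716), EIF2B4 (-0.072, 0.665), EIF4G1 (0.11, 0.521) and EIF4A3 (0.12, 0.257) were not called in this window. Of the scaffold and subunit genes, EEF1E1 (0.34 ± 0.08) and FARSA (0.33 ± 0.09) rose, and 2 elongation and release factor genes, MTRF1L and EEF1D, fell by 0.24 and 0.13 on the log2 scale. ATF3 (1.18 ± 0.22) and DDIT3 (0.42 ± 0.13) rose, PSAT1 and ALDH1L2 fell by 0.30 and 0.17, and RHEB fell by 0.17.

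The difference of the late from the middle window was called positive for 4.45% of probe sets and negative for 4%. Of named genes 4.33% were positive and 7.32% negative. This difference called no member in the positive direction and 3 in the negative. These were WARS2, EIF2S1 and VARS, the last with -0.34 ± 0.10 (limma adjusted p = 0.0327), which was lost as a call when 12 of 36 arrays were left out in turn. VARS was also not called with quantile normalization (-0.284, limma adjusted p = 0.0792). Against the sham arrays, 1 per time, none of the 3 was called. The other members that were called over 24 to 72 h and not later, such as AARS (0.50 against 0.21 ± 0.09) and HARS (0.45 against 0.19 ± 0.08), did not differ between the windows at the adjusted threshold, though AARS was called with the replicate number as a block.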

How the data were processed

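Values were deposited by the authors as log2 signals per probe set of 63 Affymetrix GeneChip Porcine Genome arrays, made with RMA; Partek is also named, per the submitters' processing notes, and no version is given in the sources used here. They ranged from 4.05 to 14.54, with array medians of 7.746 to 7.862, and were used as given. Because RMA shrinks the differences of dim probe sets, folds of dim genes are understated. Of 24123 probe sets, 124 controls were left out. Of the 23999 tested, 10069 had 1 symbol in the supplied annotation of the array, 198 several and 13732 were unlisted; 53 of the 54 genes matched a RefSeq gene of the same symbol by gene number. The number of arrays limits the precision: arrays of 1 group differed from each other with an SD (over probe sets) between 0.231 and 0.583, in the median 0.335. The labels give 3 exposed animals per time but tie no array to an animal, so p-values measure the spread between arrays. At every time numbers 1 and 2 share a sacrifice day and number 3 has another, in both arms, so all 27 same-numbered pairs share a day; same-numbered arrays correlated over 0.1 in 21 of 27 pairs (mean 0.27, other numbers -0.136). Results with the replicate number or, chosen after seeing the data, the sacrifice day as a block are therefore given where a call or count changes.

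All arrays were fitted in limma 3.58.1 (R 4.3.3) with a separate mean for each group; residual degrees of freedom were 36 and prior ones 3.24. Exposed was set against control at 9 times and over 3 windows (means of their times), windows against each other, and sham against control. The fit was checked on simulated data. Named were, for each class, up to 5 members in each direction per window, up to 3 per time and per window difference, and genes listed for their role; per pathway list up to 3 per window, though further listed genes that passed are also named, as are further members, chosen after their values were seen. Members and lists were chosen with earlier results of these data known. Alternatives were the replicate number or the in vitro transcription day as a block, sham arrays as control, quantile normalization, the mean of a gene's probe sets, a muscle covariate, single-time fits, a fold minimum, a filter on dim probe sets and leaving out each array. EIF4EBP1, EIF2AK1, EIF2AK3, EIF2AK4, EIF2B5, EIF2S3 and EIF3G were not used here, and no sequences or coordinates are given.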

Additional observations from a re-analysis of the deposited data

Results flagged for a closer look

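The response of 14 members differed between 24 to 72 h and the first 1 to 4 h by limma's test of the difference itself. It was larger in the later window for VARS (0.56), EIF3I (0.48), WARS2 (0.47), AARS (0.47), EIF2S1 (0.39), HARS (0.37), EIF3B (0.35), EIF4G1 (0.33), RARS (0.32) and EIF4A3 (0.24), all on the log2 scale. It was smaller or more negative for EIF4EBP2 (-0.72), EIF4B (-0.45), EIF4A2 (-0.28) and EIF3H (-0.26). The call of EIF3B was lost with quantile normalization and that of EIF4B with the mean of its probe sets (-0.165). That of EIF4A2 was lost with the muscle level as a covariate. Of named genes 16.8% were called positive and 6.36% negative in this test. For WARS2 (-0.53), VARS (-0.34, lost when 12 of 36 arrays were left out in turn) and EIF2S1 (-0.32) the response then shrank from 24 to 72 h to 168 to 514 h. Against the sham arrays, 1 per time, none of these later changes was called. Nor were the earlier changes of EIF3B and EIF4B.

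EIF6 and EIF4H were called in opposite directions at different times. The response of EIF6 was higher at 514 h than at 168 h by 1.23, and that of EIF4H was lower at 168 h than at 24 h by 0.47 (a difference of -0.47). Both genes and their times were picked for these opposite calls, so the difference was bound to be large. No group held enough arrays for a test of single outlying arrays within a time.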

How the results depend on the processing

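Of 118 differences tracked by name, none of the 80 that were called changed sign in an alternative fit, and 20 of those not called did so in at least 1. Counts below are members called in either direction. With sulfur mustard and control arrays of the same number joined (replicate block), the count of initiation factors was 1 at 1 h, 2 at 336 h, 8 at 514 h, 4 over 1 to 4 h and 3 between the late and the middle window, and that of synthetases 13 at 24 h, 2 at 168 h and 6 over 168 to 514 h; EIF4A3 over 168 to 514 h was lost (adjusted p = 0.0747). The sacrifice day as a block, chosen after seeing the data, gave 2 synthetases at 168 h and 5 over 168 to 514 h and moved no other count by over 1.5 times. With it EIF5B at 514 h and EIF4A3 over 168 to 514 h (limma adjusted p = 0.0634) were lost. With sham arrays as the control, synthetases numbered 7 over 24 to 72 h and 1 over 168 to 514 h, and initiation factors 4 over 168 to 514 h and 5 for the middle against the first window; the late against the middle window had 0 of each class by limma, and DARS, EARS2, KARS, EIF2B4 and EIF4E were lost over 24 to 72 h. With the transcription day as a block, no initiation factor was called at 336 h (0). Quantile normalization gave 0 initiation factors at 2 h and 1 synthetase between the late and middle windows. The mean of a gene's probe sets gave 1 synthetase at 48 h and 2 initiation factors at 336 h, and DARS at 24 h was lost (0.64, adjusted p = 0.0597). The muscle covariate gave 1 synthetase at 72 h and 2 at 168 h. Of the differences tracked by name, 10 lost their call with it and 2 gained one. Lost over 24 to 72 h were KARS (limma adjusted p = 0.109), IARS2 (0.0592), EIF2B4 (0.0597) and EIF4E (0.0556). Lost over 168 to 514 h were EIF2B4 (0.0908) and EIF4A3 (0.0906). Also lost were EIF2AK2 at 24 h, IARS2 at 72 h, EIF5B at 514 h and EIF4A2 between the middle and first windows. MARS over 24 to 72 h (0.0213) and AARS over 168 to 514 h (0.00511) gained one. Fits of the 6 arrays of a time gave 0, 0, 4, 0 and 2 initiation factors at 2, 48, 168, 336 and 514 h and 0, 1, 0 and 1 synthetases at 48, 72, 168 and 514 h. A minimum change of 0.5 gave 11, 1, 1, 4 and 0 initiation factors at 24, 48, 72, 168 and 336 h, 1, 4 and 0 in the 3 windows and 1 and 0 for their differences, and 1, 1, 0 and 1 synthetases at 48, 72, 168 and 514 h, 2 and 0 in the later windows and 1 and 1 for the differences. The filter on dim probe sets moved no count by over 1.5 times. Leaving out 1 array gave 0 to 1 initiation factors at 1 h and at 2 h, 1 to 2 at 4 h, 3 to 5 at 48 h, 4 to 10 at 168 h, 0 to 3 at 336 h, 1 to 5 at 514 h, 1 to 2 over 1 to 4 h and 1 to 2 between the late and middle windows, and 0 to 3 synthetases at 48 h, 1 to 2 at 72 h, 0 to 2 at 168 h, 1 to 3 at 514 h, 2 to 5 over 168 to 514 h and 1 to 3 between the late and middle windows. At 24 h and over 24 to 72 h the counts of both classes stayed within 1.5 times under every single array left out. Signal over background limits EIF1AY and NARS2, the members that this filter removed.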
